A study of Mus musculus with 8 samples.

Results

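The genes of prostaglandin and leukotriene synthesis were followed in mouse lung after ozone or filtered air. The set of 10 genes comprised Pla2g4a, Ptgs1, Ptgs2, Ptges and Hpgd of the prostaglandin arm and Alox5, Alox5ap, Alox15, Lta4h and Ltc4s of the lipoxygenase and leukotriene arm. A probe set was taken where the array annotation named one of these genes alone, which gave 8 of 12422 probe sets, for 7 of the 10 genes. Ptgs1, Alox5 and Alox5ap were not analysed here. Ltc4s had 2 probe sets, and the other 6 genes had 1 each. Of the 8 probe sets, 7 were above the detection floor on at least 2 arrays and were tested, and the second probe set of Ltc4s was not. Total RNA of frozen whole lung was measured on Affymetrix oligonucleotide arrays. Each of 4 groups had 2 arrays: C3H/HeJ mice in ozone, C3H/HeJ mice in filtered air, C3H/HeOuJ mice in ozone and C3H/HeOuJ mice in filtered air. All groups belong to the C3H lineage, and C3H/HeJ carries a missense mutation of the endotoxin receptor gene that leaves it poorly responsive to endotoxin. The labels give 72 h of exposure for both C3H/HeOuJ groups and no duration for C3H/HeJ, and they name no ozone dose, age or sex. Nor do they tie the 2 arrays of a group to different animals, and the p-values therefore cover array-to-array spread alone, which may be technical.

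Eicosanoids are signalling lipids made from arachidonic acid. The cytosolic phospholipase of Pla2g4a frees arachidonic acid from membranes. Cyclooxygenases (Ptgs1, Ptgs2) turn it into prostaglandin H2, from which Ptges makes prostaglandin E2, and Hpgd oxidises and so inactivates prostaglandins. Along the other branch, Alox5 with its partner Alox5ap makes leukotriene A4, which Lta4h hydrolyses to leukotriene B4, an attractant of neutrophils, and which Ltc4s joins to glutathione to start the cysteinyl leukotrienes, constrictors of airway muscle. Alox15 oxygenates arachidonic and linoleic acid and in the mouse is known from macrophages and eosinophils. The lung is a known site of prostaglandin breakdown.

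The array medians lay between 351 and 386 intensity units, and 17.7% to 21.1% of the probe sets of an array lay at or below the floor of 69.63 units. Markers of lung epithelium were present: none of 4 alveolar type 2, 4 alveolar type 1 and 3 club cell markers on the array was at the floor on all 8 arrays. The 2 HeOuJ ozone arrays stood apart in their 5'/3' control ratios, at 0.766 and 0.756 for actin against 0.432 to 0.603 on the other 6 arrays, and at 1.34 and 1.18 for Gapdh against 0.775 to 1.06. The HeOuJ air arrays, at 0.598 and 0.603 for actin, were also above the HeJ air arrays, at 0.498 and 0.432. Comparisons that use the HeOuJ ozone arrays, and to a lesser degree those between the strains in air, carry this difference with them. Because the ratio largely followed the groups, a fit with it as a covariate cannot separate it from these comparisons. The SEs of that fit were wider for them.

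The sequences upstream of 3 genes are shown as context: Ptgs2 is the inducible cyclooxygenase, and Ltc4s and Hpgd were the genes with the smallest p for the strain difference. No comparison below uses them, and Alox15 is named only. RefSeq windows of build GRCm38.p6, from the C57BL/6J genome and not from C3H, were found for 6 of the 7 measured genes. Each sequence is the 250 bases before the annotated start, 5′ to 3′ on the strand of the gene, at chr1:150099781-150100030 on the + strand for Ptgs2, chr11:50238533-50238782 on the - strand for Ltc4s and chr8:56294302-56294551 on the + strand for Hpgd. Capitals mark matches on either strand to TTGCGCAA, a C/EBP-type element, to GGGCGG, the GC box, to CCAAT and to TATAAA.
Ptgs2: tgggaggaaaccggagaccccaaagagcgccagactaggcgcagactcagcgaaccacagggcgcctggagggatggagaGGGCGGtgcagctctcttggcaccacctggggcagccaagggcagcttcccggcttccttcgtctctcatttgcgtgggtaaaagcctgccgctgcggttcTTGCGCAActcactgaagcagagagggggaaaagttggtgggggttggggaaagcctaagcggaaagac
Ltc4s: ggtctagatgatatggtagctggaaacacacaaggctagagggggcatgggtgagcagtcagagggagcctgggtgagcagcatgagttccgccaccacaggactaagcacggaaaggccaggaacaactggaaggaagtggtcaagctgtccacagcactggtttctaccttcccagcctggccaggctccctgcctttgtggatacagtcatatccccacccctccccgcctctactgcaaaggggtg
Hpgd: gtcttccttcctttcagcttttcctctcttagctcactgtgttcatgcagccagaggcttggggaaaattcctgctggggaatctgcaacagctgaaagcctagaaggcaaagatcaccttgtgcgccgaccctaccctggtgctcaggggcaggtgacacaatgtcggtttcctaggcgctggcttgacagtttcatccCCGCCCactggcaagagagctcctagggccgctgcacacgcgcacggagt
The Ptgs2 window held TTGCGCAA at -69 and GGGCGG at -170, counted from the start. The Hpgd window held GGGCGG on the opposite strand at -50, and the Ltc4s window held none of the 4 motifs. The matches shown do not overlap each other. Of all 32851 windows of this length, 0.164% held TTGCGCAA, 32.7% GGGCGG, 33.8% CCAAT and 12.4% TATAAA. Among the measured genes with a window, TTGCGCAA was in 1 (Ptgs2), GGGCGG in 3 (Ptgs2, Ptges and Hpgd), CCAAT in 1 (Lta4h) and TATAAA in 1 (Pla2g4a). These matches only describe the letters of the reference genome.

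None of the 7 tested genes passed an adjusted p of 0.05 in any of 7 comparisons (limma, Benjamini-Hochberg over 10953 probe sets). The widest difference was that of Alox15, which was at the floor on both HeJ ozone arrays and well above it on both HeJ air arrays. Ltc4s read lower on all HeJ than on all HeOuJ arrays by a narrow margin, with -0.38 on the log2 scale averaged over exposures. For Hpgd that average was -0.31. With the 5'/3' control ratio as a covariate the averages were -0.15 (SE 0.42) for Ltc4s and 0.27 (SE 0.26) for Hpgd. No difference between the groups was resolved for any of the 7 genes. In C3H/HeOuJ the fitted ozone differences lay between -0.07 for Ptges and 0.22 (SE 0.57) for Alox15 on the log2 scale. The Alox15 value was -0.71 without HeOuJ air 1a and 1.15 without HeOuJ air 1b. Under the 5'/3' covariate the HeOuJ differences ran from -0.63 (SE 0.62) for Ptges to 0.99 (SE 1.25) for Alox15. The small fitted values therefore do not show an absence of response in HeOuJ.

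**Figure D1:**
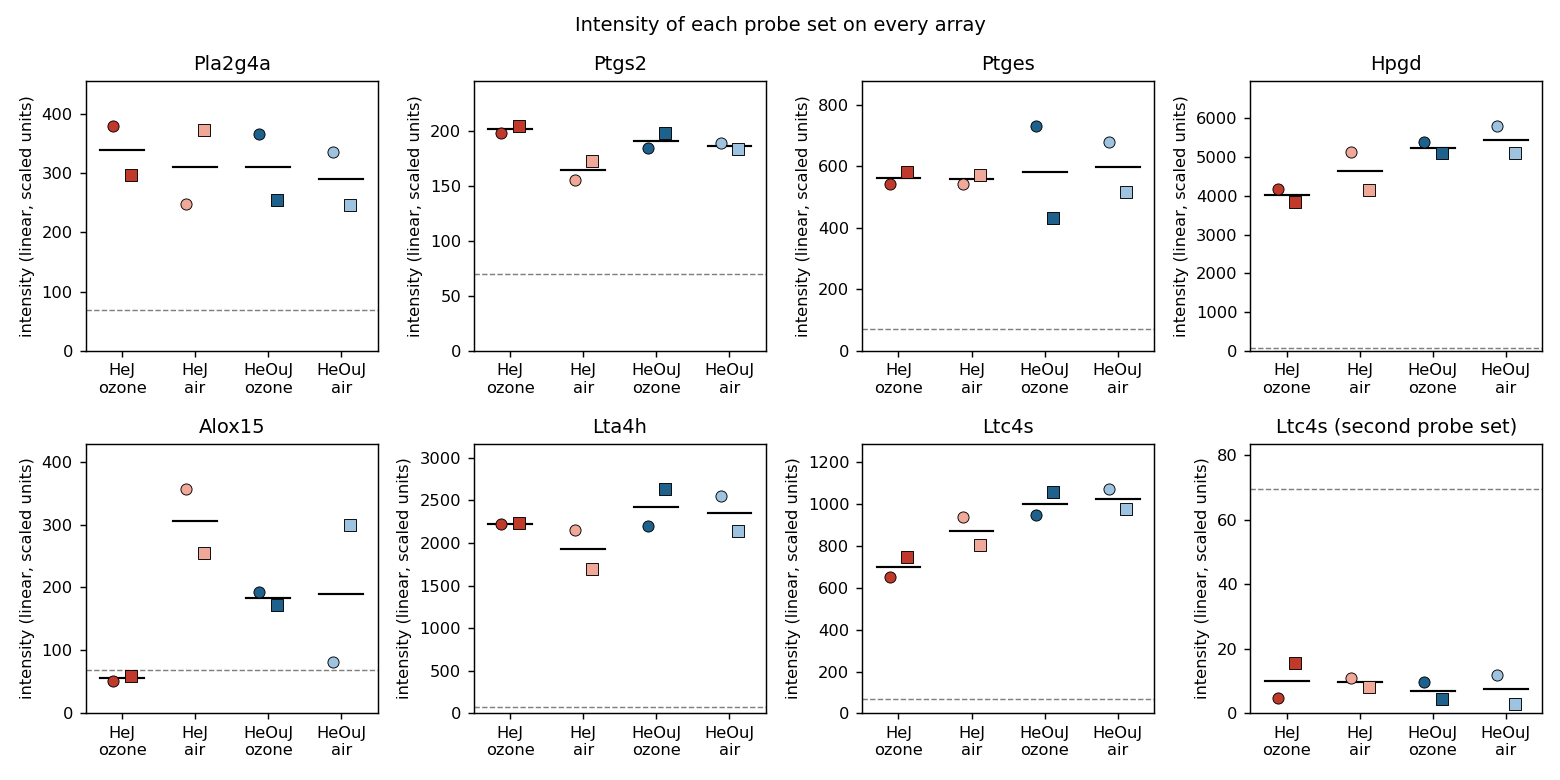
Intensity of the 8 probe sets on each of the 8 arrays (y axis, linear scaled units from 0) by group (x axis); circles are replicate 1a, squares 1b, bars the mean of 2 arrays, and the dashed line the floor of 69.63 units. Alox15 lies below the floor on both HeJ ozone arrays, and the second probe set of Ltc4s lies below it on all 8.

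Pla2g4a, which starts the pathway by freeing arachidonic acid, had intensities of 379.8 and 298 on the HeJ ozone arrays, against 247 and 372 in HeJ air. In HeOuJ lungs it had 367 and 255 in ozone, against 335 and 247 in air. The arrays of every group overlapped with those of every other, and replicates differed by up to 1.51-fold. The log2 difference of ozone minus air was 0.15 in HeJ (95% interval -0.71 to 1.01) and 0.09 in HeOuJ (-0.77 to 0.95). Leaving out 1 air array turned the sign: HeJ had -0.15 without HeJ air 1a and 0.44 without HeJ air 1b, and HeOuJ had 0.31 without HeOuJ air 1a and -0.13 without HeOuJ air 1b. The order of the group means, HeJ ozone, HeOuJ ozone, HeJ air and HeOuJ air, was therefore not resolved.

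Ptgs2, the inducible cyclooxygenase, read 199 and 205 units in HeJ ozone, against 156 and 173 in HeJ air. In HeOuJ lungs it read 185 and 198 in ozone, against 189.5 and 184 in air. The 2 HeJ exposures did not overlap, with ozone the higher, whereas the HeOuJ exposures overlapped. Non-overlap with ozone higher occurred in 18.4% of all tested probe sets in HeJ. The log2 difference was 0.30 (SE 0.33, 95% interval -0.46 to 1.05) in HeJ and 0.04 (SE 0.33, -0.71 to 0.79) in HeOuJ, with adjusted p-values of 1 and 0.978. Its replicates lay close together: their residual SD of 0.07 on the log2 scale placed Ptgs2 at the lowest 1.96% of tested probe sets, and the moderated SD used for the test was 0.33. By group mean the order was HeJ ozone, HeOuJ ozone, HeOuJ air and HeJ air, and HeOuJ ozone and HeOuJ air overlapped.

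Ptges, the terminal synthase of prostaglandin E2, read 542 and 582 in HeJ ozone, against 543 and 571 in HeJ air. HeOuJ lungs had 730.3 and 432 in ozone, against 678 and 515 in air. All groups overlapped, and the HeOuJ ozone arrays differed from each other by 1.69-fold, more than any 2 group means differed. The log2 difference was 0.01 (95% interval -0.66 to 0.68) in HeJ and -0.07 (-0.74 to 0.60) in HeOuJ.

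Hpgd, which inactivates prostaglandins, read 4190.1 and 3833 in HeJ ozone, against 5141 and 4162 in HeJ air. The HeOuJ values were 5395 and 5103 in ozone, against 5806 and 5107 in air. Both HeJ ozone arrays were below both HeOuJ ozone arrays, while in air the strains overlapped by a narrow margin. Ozone minus air was -0.21 on the log2 scale (95% interval -0.54 to 0.13) in HeJ and -0.05 (-0.39 to 0.28) in HeOuJ. The HeJ value was -0.05 without HeJ air 1a and -0.36 without HeJ air 1b. HeJ minus HeOuJ averaged over both exposures was -0.31 (SE 0.10, unadjusted p 0.0152, adjusted p in limma 0.261). With the 5'/3' control ratio as a covariate that strain difference turned to 0.27 (SE 0.26). The order of means was HeOuJ air, HeOuJ ozone, HeJ air and HeJ ozone, and each neighbouring pair overlapped.

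Alox15, a lipoxygenase, read 52.3 and 58.7 units in HeJ ozone, both below the floor, against 357 and 254 in HeJ air. In HeOuJ lungs it read 193 and 172 in ozone, against 82.3 and 299 in air. The HeJ exposures were far apart, while the HeOuJ air arrays differed by 3.63-fold and enclosed the HeOuJ ozone arrays. In HeJ the measured intensity was at least 4.33-fold lower in ozone, with the floor taken as the HeJ ozone value. That bound describes these arrays and leaves out their spread. The fitted log2 difference was -2.11 (SE 0.57, 95% interval -3.40 to -0.82). The unadjusted p was 0.00508 and the adjusted p in limma 0.86, so the difference did not pass. Its size followed the floor, from -2.44 with a floor of 30.1 units to -1.17 with one of 134 units. The HeOuJ difference was 0.22 (SE 0.57), and it was -0.71 without HeOuJ air 1a and 1.15 without HeOuJ air 1b. The difference of the ozone effects, HeJ minus HeOuJ, was -2.33 (SE 0.80, unadjusted p 0.018, adjusted p in limma 0.336), and it was -1.40 without HeOuJ air 1a, -3.26 without HeOuJ air 1b and -1.03 with the floor of 134 units. Between the strains in ozone, the measured HeJ intensity was at least 2.62-fold lower in the same sense (adjusted p in limma 0.247). That bound also rests on the floor: the fitted difference was -1.39 as reported, -0.44 (SE 0.37) with the floor of 134 units and -2.60 (SE 1.83) with the 5'/3' covariate. The residual SD of Alox15 on the log2 scale, 0.68, was higher than or equal to that of 91.3% of tested probe sets. By mean the order was HeJ air, HeOuJ air, HeOuJ ozone and HeJ ozone, and HeJ ozone alone did not overlap with its neighbour.

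Markers of cells known to carry Alox15 stand beside this result. All 8 macrophage markers were on the array; their summed intensity was 6637 to 6834 in HeJ ozone, against 8181 to 8823 in HeJ air, and 7 of 7 tested markers had a lower value in ozone, none past the threshold. In HeOuJ 2 of the 7 had a higher and 5 a lower value in ozone. Of the lower ones 1 passed the threshold, as did 0.456% of all tested probe sets. With the 5'/3' covariate 0 of all tested probe sets passed, but that covariate largely followed the groups, so the fit could not decide this call. The sum of 8128 to 9146 in HeOuJ ozone, against 11050 to 12240 in HeOuJ air, followed 1 marker, Chil3. Without Chil3 the sums were 4575 to 5104 in HeJ ozone, against 5443 to 5763 in HeJ air, and 5669 to 6427 in HeOuJ ozone, against 5211 to 6073 in HeOuJ air. Of 4 eosinophil markers on the array, Prg2, Epx and Il5ra were at the floor on all 8 arrays. The B and plasma cell markers also read lower in HeJ ozone: their sum was 8080 to 8930 in HeJ ozone, against 14890 to 15610 in HeJ air. In HeJ 6 of 6 tested had a lower value (median -0.56), none past the threshold. In HeOuJ their sums overlapped, at 10540 to 13330 in ozone against 11630 to 11800 in air. There 4 had a higher and 2 a lower value in ozone (median 0.06), none past the threshold. Lower values in HeJ ozone were not limited to these lists. They were seen for 4 of 4 alveolar type 2 and 3 of 4 alveolar type 1 markers. Of 9 neutrophil markers, 6 had a higher and 3 a lower value there. None of these markers passed the threshold. The part of any of these cells in the Alox15 values was not tested. In whole lung, fewer cells of a type and less RNA per cell cannot be told apart.

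Lta4h, the hydrolase that makes leukotriene B4, read 2224 and 2231 in HeJ ozone, against 2155 and 1697 in HeJ air. The HeOuJ values were 2203 and 2638 in ozone, against 2557 and 2137 in air. The HeJ exposures did not overlap, ozone being the higher by a narrow margin, and the HeOuJ exposures overlapped. The log2 difference was 0.22 (95% interval -0.16 to 0.60) in HeJ and 0.04 (-0.34 to 0.43) in HeOuJ. In HeJ it was 0.39 without HeJ air 1a and 0.05 without HeJ air 1b. By mean the order was HeOuJ ozone, HeOuJ air, HeJ ozone and HeJ air, and only the last pair did not overlap.

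Ltc4s, the synthase of leukotriene C4, read 650.3 and 746 in HeJ ozone, against 937 and 806 in HeJ air. HeOuJ lungs had 946 and 1059 in ozone, against 1075 and 976 in air. All 4 HeJ arrays were below all 4 HeOuJ arrays, by a narrow margin of 937 on HeJ air 1a against 946 on HeOuJ ozone 1a. Within HeJ both ozone arrays were below both air arrays. Such a full separation of the strains with HeJ lower occurred in 2.7% of all tested probe sets. HeJ minus HeOuJ averaged over both exposures was -0.38 on the log2 scale (SE 0.13, unadjusted p 0.0162, adjusted p in limma 0.265). It was -0.52 (SE 0.18, adjusted p in limma 0.182) in ozone and -0.24 (SE 0.18, adjusted p in limma 0.969) in air, and these share no arrays. Ozone minus air was -0.32 (95% interval -0.73 to 0.09) in HeJ and -0.03 (-0.44 to 0.38) in HeOuJ. Adding the 5'/3' covariate left the strain difference at -0.15 (SE 0.42). The order of means was HeOuJ air, HeOuJ ozone, HeJ air and HeJ ozone, and only the HeOuJ pair overlapped.

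The second probe set of Ltc4s read between 3.05 and 15.6 units on the 8 arrays, all below the floor, and gave no comparison. With the mean of both probe sets the strain difference of Ltc4s was -0.19. That value is smaller only because the second probe set is constant at the floor, so it is no second measurement. Cells known to express Ltc4s include mast cells and macrophages. The 8 mast cell markers on the array summed to 3622 to 4084 units in HeJ ozone and 3937 to 4611 in HeJ air, against 3073 to 3491 in HeOuJ ozone and 3594 to 3595 in HeOuJ air. By gene the markers were divided. Of 6 tested, 3 had a higher and 3 a lower value in HeJ averaged over the exposures (median 0.04), none past the threshold. Tpsab1 was at the floor on all 8 arrays. Of 7 tested macrophage markers, 5 had a higher and 2 a lower value in HeJ averaged over the exposures (median 0.06), the lower ones being Chil3 and Cd68. Cd68 passed the threshold, at -0.94 (SE 0.12, adjusted p in limma 0.0322). With the 5'/3' covariate 0 of all tested probe sets passed. That covariate largely followed the groups and widened the SEs, so the fit could not decide the Cd68 difference. The part of mast cells and macrophages in the Ltc4s difference was not tested.

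**Figure D2:**
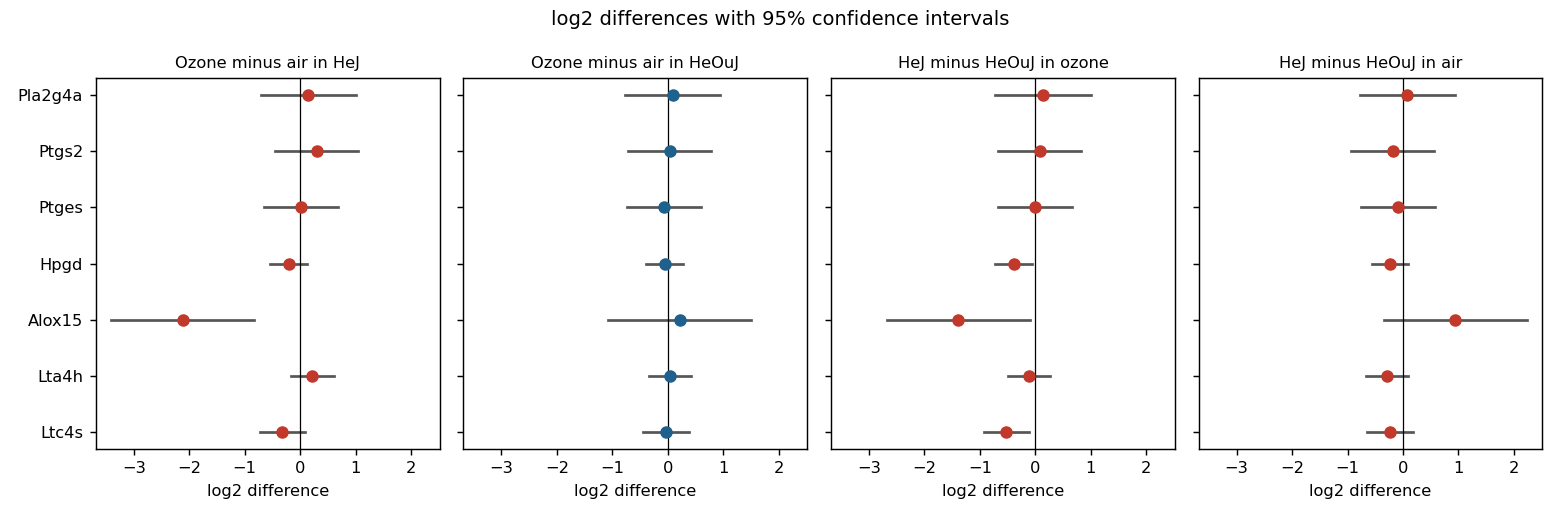
log2 difference (x axis) of each of the 7 tested genes (rows) with its 95% confidence interval, for ozone minus air in each strain and HeJ minus HeOuJ at each exposure. Alox15 in HeJ stands at -2.11, and in HeOuJ the ozone differences of all 7 genes lie between -0.07 and 0.22.

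Taken by comparison, ozone minus air in HeJ had 0 of 7 genes past the adjusted threshold, as had 0% of all tested probe sets, and 1 gene, Alox15, with an unadjusted p under 0.05 (4.35% of all, and 1.99% with a lower value). The arrays did not overlap for 4 of the 7, with Ptgs2 and Lta4h higher and Alox15 and Ltc4s lower, against 34.4% of all probe sets (18.4% higher and 16% lower). In HeOuJ 0 of 7 passed, against 0.456% of all tested, and 0 had an unadjusted p under 0.05, against 15.5%. No gene of the set was separated there, against 41.8% of all, and so none was separated in opposite directions in the strains, against 8.11%. The median size of the ozone difference, without sign, was 0.22 for the 7 genes and 0.19 for all probe sets in HeJ, and 0.05 for the 7 genes and 0.30 for all probe sets in HeOuJ. The 95% interval lay within a 2-fold change for 6 of the 7 genes in HeOuJ, all but Alox15, and for 4 in HeJ. These intervals hold without the 5'/3' covariate. With it the HeOuJ difference was -0.63 (SE 0.62) for Ptges, 0.22 (SE 0.74) for Ptgs2 and 0.03 (SE 0.85) for Pla2g4a. Hpgd moved to -0.56 (SE 0.25), Lta4h to -0.36 (SE 0.34) and Ltc4s to -0.23 (SE 0.39). Their adjusted p-values in limma were 0.913, 0.94 and 0.983. Within 2 SE each of these 6 values reached a 2-fold change, so the bound held for none of them.

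The difference of the ozone effects between the strains passed for 0 of 7 genes, as for 0% of all tested, with 1 gene, Alox15, at an unadjusted p under 0.05 (11.4% of all, and 5.13% with a lower value). Averaged over the strains, ozone minus air passed for 0 of 7, against 0.0183% of all. Alox15 was again the 1 gene with an unadjusted p under 0.05 (9.25% of all, and 4.54% with a lower value), at -0.95 (SE 0.40, adjusted p in limma 0.524). No gene had all 4 ozone arrays apart from all 4 air arrays, against 3.23% of all.

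HeJ minus HeOuJ passed for 0 of 7 genes in ozone (0.977% of all), 0 in air (0.0456%) and 0 averaged over the exposures (0.155%), in limma. An unadjusted p under 0.05 was reached by 3 genes in ozone, Ltc4s, Hpgd and Alox15, all lower in HeJ, against 18% of all probe sets (9.11% lower), and by 0 genes in air, against 5.71%. Averaged over the exposures, 2 genes reached it, Ltc4s and Hpgd, against 13% (6.68% lower). In ozone the strains did not overlap for 4 of 7 genes, Ptgs2 higher in HeJ and Alox15, Ltc4s and Hpgd lower, against 45.9% of all (21.6% higher and 24.4% lower). In air they did not overlap for 2, Ptgs2 and Ltc4s, both lower in HeJ, against 32.7% of all (17.1% lower), and over both exposures for 1, Ltc4s, against 4.7% (2.7% lower). In that average 6 of 7 genes had a lower value in HeJ, all but Pla2g4a, with a median of -0.20, while 53.1% of all probe sets were lower and their median was -0.02. Ptges, at -0.04, and Ptgs2, at -0.05, were close to 0, and with the 5'/3' covariate 3 of 7 genes had a lower and 4 a higher value in HeJ. The values in ozone and in the average both use the HeOuJ ozone arrays with the high 5'/3' ratios. In air Ltc4s had -0.24, Hpgd -0.24 and Lta4h -0.29, and with the covariate they had -0.09, 0.14 and 0.01. The air value of Hpgd was -0.39 without HeJ air 1a and -0.08 without HeJ air 1b, and that of Lta4h was -0.46 without HeJ air 1a and -0.12 without HeJ air 1b.

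**Figure D3:**
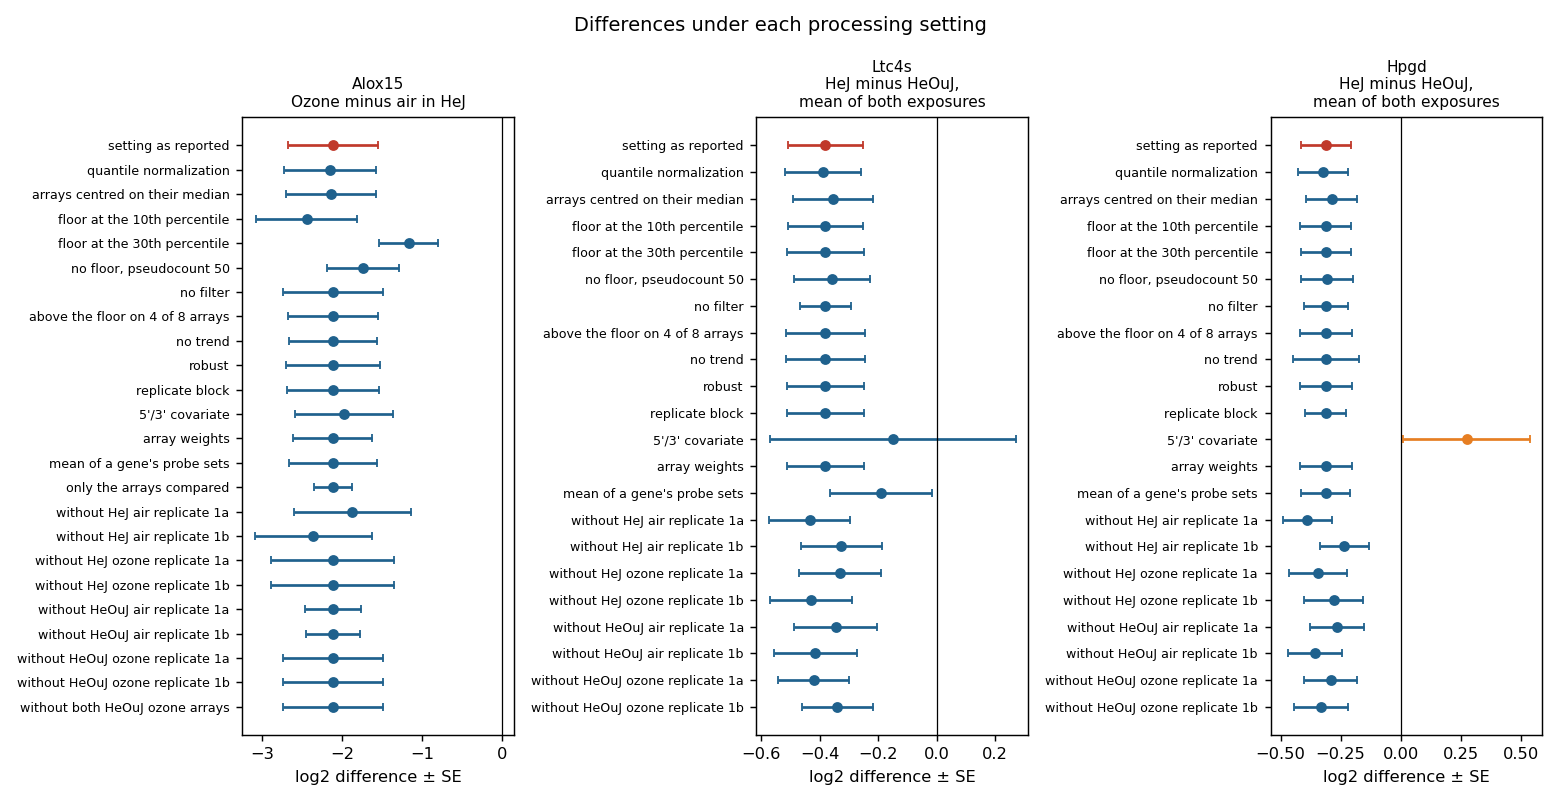
log2 difference with its SE (x axis) for Alox15 (ozone minus air in HeJ), Ltc4s and Hpgd (HeJ minus HeOuJ, mean of both exposures) under each processing setting (rows). Hpgd turns to 0.27 with the 5'/3' covariate, and Alox15 keeps a negative value in every setting shown, from -2.44 to -1.17; leaving out a HeOuJ array can change only its SE.

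Among themselves, the genes did not vary together as a set. Over the 8 arrays, which share 4 groups and the arrays' quality, the 15 pairs among the 6 genes above the floor on all arrays had Pearson correlations of log2 values from -0.50 for Ltc4s and Pla2g4a to 0.87 for Ltc4s and Hpgd. Lta4h had 0.50 with Hpgd and 0.46 with Ltc4s, and Ptges had 0.62 with Pla2g4a. Ptgs2 had at most 0.47, with Lta4h. By the same measure, among 7434 probe sets that name 1 gene and lie above the floor on all 8 arrays, the genes most like Ltc4s were Ighm (0.97, 1 of its probe sets) and Man2a1 (0.97), and those most like Hpgd were Zwint (0.97) and Tcf21 (0.96). The genes most like Ptgs2 were Gnao1 (0.93) and Rbbp7 (0.92), and the one most like Lta4h was Commd6 (0.95). Ptges was most like Fam136a (0.98) and Pla2g4a most like Mocs2 (0.95). With 8 arrays and so many probe sets, values of this size only describe these arrays.

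The other genes of the pathway were taken from 6 lists of 60 genes, of which 35 were on the array and 33 were tested. None passed in any of the 7 comparisons in limma. In HeJ 16 had a higher value, 16 a lower value and 1 no difference in ozone, 4 of the 33 at an unadjusted p under 0.05, against 4.35% of all probe sets. In HeOuJ 20 had a higher value, 12 a lower value and 1 no difference, 4 of the 33 at an unadjusted p under 0.05, against 15.5% of all.

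Nearest to the synthesis steps, Ptgis, the prostacyclin synthase, had intensities of 1573 and 1509 in HeJ ozone, against 2167 and 1901 in HeJ air, a log2 difference of -0.40 (SE 0.14, adjusted p in limma 0.996). Of the 5 tested prostanoid synthases besides Ptges, 2 had a higher and 3 a lower value in HeJ ozone, and 3 a higher and 2 a lower value in HeOuJ ozone. Ptgr1, a reductase that breaks down prostaglandins and leukotriene B4, had 1643 and 1941 in HeOuJ ozone, against 1029 and 1009 in HeOuJ air. That was a log2 difference of 0.81 (SE 0.19, adjusted p in limma 0.099), and in HeJ it was 0.27 (SE 0.19). The HeOuJ groups of Ptgr1 did not overlap, as for 41.8% of all tested probe sets, and the difference did not pass. It uses the HeOuJ ozone arrays with the high 5'/3' ratios.

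Among 11 tested genes of other lipoxygenases and leukotriene metabolism, 2 had a higher value, 8 a lower value and 1 no difference in HeJ ozone, and 5 a higher and 6 a lower value in HeOuJ ozone. Mgst3, a microsomal glutathione transferase with leukotriene C4 synthase activity, read 1908 and 2291 in HeJ ozone, against 1675 and 1342 in HeJ air, and 3111 and 3034 in HeOuJ ozone, against 2102 and 2088 in HeOuJ air. Its ozone difference was 0.52 averaged over the strains (SE 0.11, adjusted p in limma 0.249), and its strain difference was -0.52 averaged over exposures (SE 0.11, adjusted p in limma 0.122). Dpep1, the dipeptidase that converts leukotriene D4, read 1043 and 887 in HeJ ozone and 1479 and 1501 in HeJ air, against 1669 and 1524 in HeOuJ ozone and 1961 and 2068 in HeOuJ air. All HeJ arrays of Dpep1 were below all HeOuJ arrays, like those of Ltc4s, by a narrow margin of 1501 in HeJ air against 1524 in HeOuJ ozone. Such a separation with HeJ lower occurred in 2.7% of all tested probe sets. The strain difference of Dpep1 was -0.58 (SE 0.10, adjusted p in limma 0.102). In ozone that difference was -0.73 (SE 0.14, adjusted p in limma 0.0558). These differences of Mgst3 and Dpep1 use the HeOuJ ozone arrays with the high 5'/3' ratios.

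Of the receptors, 7 of 9 for prostanoids and 1 of 4 for leukotrienes were tested. Prostanoid receptors had a higher value in ozone for 5 of 7 in HeJ and 6 of 7 in HeOuJ, none past the threshold; the prostacyclin receptor Ptgir had 0.60 (SE 0.52) and 0.96 (SE 0.52). The leukotriene B4 receptor Ltb4r1 had 0.45 (SE 0.39) in HeJ and 0.08 (SE 0.39) in HeOuJ. Of 8 other phospholipases A2 tested, 5 had a higher and 3 a lower value in HeJ ozone, and 4 a higher value, 3 a lower value and 1 no difference in HeOuJ ozone.

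Ptgs2 also belongs to the immediate early genes, which are transcribed within minutes of a stimulus. Of 11 such genes, 2 had a higher and 9 a lower value in HeJ ozone, and 5 a higher and 6 a lower value in HeOuJ ozone, none past the threshold. An unadjusted p under 0.05 in limma was reached by 1 of 11 in HeJ (4.35% of all) and 5 of 11 in HeOuJ (15.5% of all). The nuclear receptor Nr4a1 had -0.88 (SE 0.14, adjusted p in limma 0.381) in HeJ, and the matrix protein Ccn1 had 0.87 (SE 0.23, adjusted p in limma 0.14) in HeOuJ. Nr4a1 was lower in HeOuJ ozone too, at 1182 and 1218 against 1604 and 1717 in HeOuJ air. Ccn1 overlapped in HeJ, at 974 and 800 in ozone against 1166 and 887 in air. The HeOuJ differences of Nr4a1 and Ccn1 use the ozone arrays with the high 5'/3' ratios. Ptgs2 itself had 0.30 in HeJ and 0.04 in HeOuJ.

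**Figure D4:**
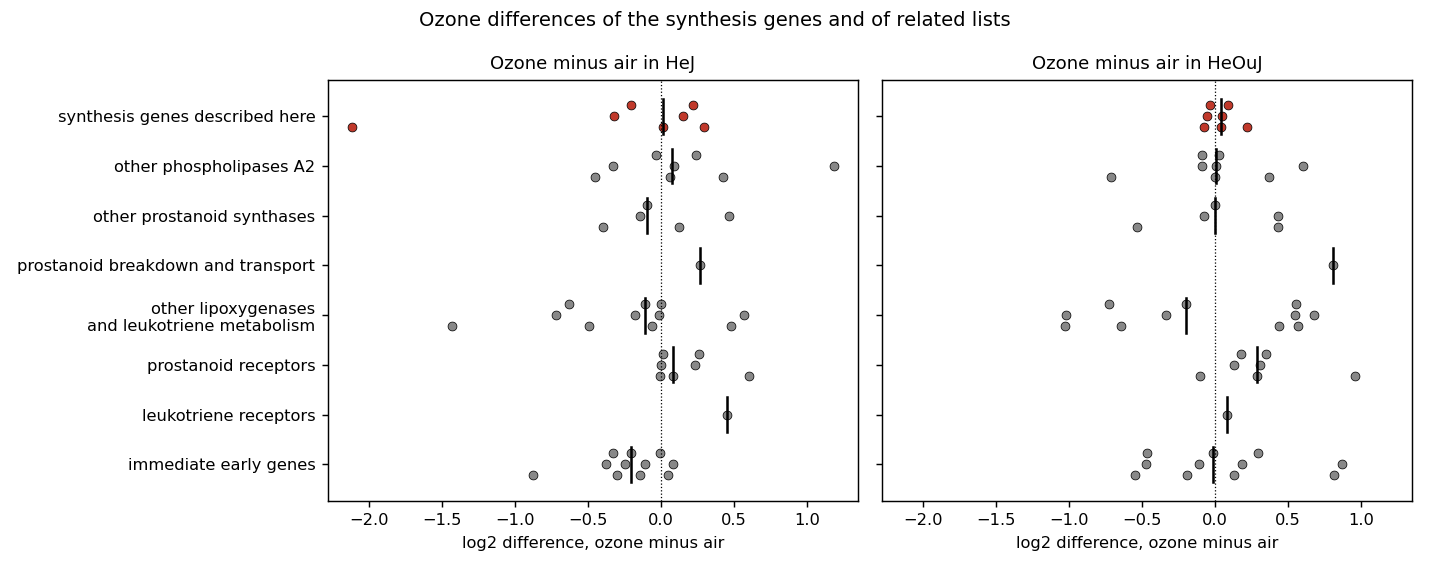
log2 difference of ozone minus air (x axis) in HeJ and HeOuJ lungs for each tested gene of the synthesis set (red) and of 7 related lists (grey); vertical bars are list medians. Apart from Alox15 in HeJ, the synthesis genes lie between -0.32 and 0.30 in HeJ and between -0.07 and 0.22 in HeOuJ.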

How the data were processed

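The authors deposited an intensity for every probe set of every array, on a linear scale. Trimmed means (2% off each end) were 800.39 to 800.41 on all arrays, which shows scaling by the authors; their software was not given in the sources used. Of 12488 probe sets 66 were controls. Values below the 20th percentile, 69.63, were raised to it, log2 was taken, and the 10953 probe sets above it on at least 2 of 8 arrays were tested. One limma fit (limma 3.58.1, R 4.3.3) of 4 group means with an intensity trend had 4 residual and 4.54 prior degrees of freedom; p-values were adjusted by Benjamini-Hochberg within each of 7 comparisons. Differences are ozone minus air or HeJ minus HeOuJ, and intervals are 95%. Gene names came from an array annotation (1 gene for 10833 probe sets, several for 396, none for 1193). A group wholly at the floor gives a bound of the fold.

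The genes, lists and tests were chosen with earlier results of these data known, and the promoter motifs with the sequences in view. Every probe set of the genes is described; of a related list, up to 4 genes past the threshold or the 2 of smallest p could be named, and each gene stands for its brightest probe set. The fit was tested on simulated data with independent noise. The simulation had neither the floor nor differences of array quality, so it does not cover their effect. Alternatives covered scaling, floor, filter, variance model, arrays, covariate and blocks. The number of arrays limits the precision. Figures used matplotlib 3.10.9.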

Additional observations from a re-analysis of the deposited data

Results flagged for a closer look

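Pla2g5, a secreted phospholipase A2, read 178 and 141 in HeJ ozone, against 51.7 and 56.4 in HeJ air, and 58.9 and 69.7 in HeOuJ ozone, against 179 and 72.5 in HeOuJ air, so that the arrays separated in opposite directions in the strains; the difference of the ozone effects, HeJ minus HeOuJ, was 1.90 (SE 0.60, adjusted p in limma 0.302). Mgst2, a glutathione transferase with leukotriene C4 synthase activity, read 173 and 188 in HeJ ozone, against 204 and 317 in HeJ air, and 427 and 411 in HeOuJ ozone, against 340.5 and 202 in HeOuJ air, a difference of -1.17 (SE 0.56, adjusted p in limma 0.483). Neither difference passed. The Pla2g5 value depends on the floor, since both HeJ air arrays and 1 HeOuJ ozone array were below it, and its HeOuJ arrays were apart only by 69.7 against 72.5; 8.11% of all tested probe sets separated in opposite directions.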

How the results depend on the processing

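The count of genes past the threshold stayed at 0 in each of the 7 comparisons under all 23 alternatives and left-out arrays that gave a value, with a smallest adjusted p in limma of 0.121. Of 1071 single values 60 changed sign; many settings leave out arrays that a comparison does not use, or alter only the SE, and could not move the value. Among the differences with an unadjusted p under 0.05, 2 turned, both of Hpgd with the 5'/3' covariate: to 0.41 in ozone and to 0.27 averaged over exposures, for HeJ minus HeOuJ. That covariate accounted for 24 of the 53 values that moved by 1 SD or more. The fit without both HeOuJ ozone arrays was added after seeing the data; for Alox15 in HeJ, which uses none of them, it could change only the SE. The deviations of same-lettered arrays correlated from -0.01 to 0.14 over the 6 pairs of groups, so the letters were not taken to pair the arrays. With the letter as a replicate block, Alox15 in HeJ had -2.11 with an adjusted p in limma of 0.852, and no call changed for the 7 genes. Signal over background limits Alox15 and the second probe set of Ltc4s.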
